A study of Rattus norvegicus with 25 samples.

Results

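Small nucleolar RNAs (snoRNAs) in rat sperm were followed through all rows of the deposited noncoding RNA (ncRNA) count table that carried the class snoRNA. These were 441 of 3804 transcripts. Transcripts with the same count in every one of the 25 libraries were treated as 1 set, which left 175 distinct snoRNA sets of 2086 distinct sets in the table. Of these, 14 sets (22 transcripts) had enough reads to be tested and 161 did not.

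The 25 libraries were small RNA libraries of mature sperm from the cauda epididymis of Sprague–Dawley rats, purified by double swim-up, from males that had self-administered saline or morphine intravenously. F0_SAL (n = 7, saline) and F0_MOR (n = 7, morphine) were collected when self-administration ended. F0_ABS-SAL (n = 5, saline) and F0_ABS-MOR (n = 6, morphine) were collected after 90 days of abstinence. Ages at collection were not given in the labels. The abstinent groups were collected later after the same procedure, so collection timepoint, age and any unrecorded library batch cannot be told apart. The labels call the libraries biological replicates. They do not say whether each came from 1 animal, so p-values measure the spread between these libraries. Libraries are named by the letter of their column.

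snoRNAs are short RNAs of the nucleolus, most of them cut from the introns of spliced host transcripts. The C/D box class guides ribose methylation and the H/ACA box class guides pseudouridylation of ribosomal and spliceosomal RNA, while the related scaRNAs do the same in Cajal bodies. Mature sperm are transcriptionally quiet cells, and much of the small RNA sequenced from them consists of fragments of longer RNAs, so a count here is a count of reads that matched a snoRNA and not of whole molecules. The table gives each snoRNA by its Ensembl identifier only. Box class, guided position, host gene, genome position and sequence were not used here, and the sets are therefore ordered by abundance.

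Each library held between 1540914 and 6489784 ncRNA counts. Mitochondrial ribosomal RNA took 51.0 to 87.0% of them in the nonabstinent libraries and 34.5 to 59.5% in the abstinent libraries. The small nuclear RNA (snRNA) share was 2.00 to 7.10% in the nonabstinent and 10.4 to 19.8% in the abstinent libraries. In the miRNA table of the same libraries, the summed level of 3 sperm-abundant miRNAs (miR-34c, miR-34b and miR-449a) lay between 162200 and 780200 CPM (counts scaled to library size) in every library. Marker miRNAs of other cells were also present, and no measured one was at 0 throughout a group. Group medians ran from 1744 to 2445 CPM for 6 leukocyte miRNAs, from 856 to 1397 CPM for 3 of 4 listed erythroid miRNAs, from 8128 to 12330 CPM for 6 epithelial miRNAs and from 14670 to 22610 CPM for 4 muscle miRNAs. The leukocyte, epithelial and muscle medians were higher in the abstinent than in the nonabstinent group of each treatment, and the erythroid median was lower (1017 against 1032 CPM in saline, 856 against 1397 CPM in morphine). The median of the sperm-abundant miRNA sum was lower, at 314800 CPM in F0_ABS-SAL against 552000 CPM in F0_SAL and at 335100 CPM in F0_ABS-MOR against 409300 CPM in F0_MOR. The part of these differences in the snoRNA results was not tested.

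The snoRNAs were a small fraction of the sperm ncRNA, and their fraction was larger in abstinent males. With each distinct set counted once, snoRNA reads made up 0.0148 to 0.0329% of the ncRNA counts in F0_SAL (median 0.0268%) and 0.0126 to 0.0349% in F0_MOR (median 0.0282%). In F0_ABS-SAL the shares were 0.0623% in library E, 0.0980% in K, 0.0808% in L, 0.223% in R and 0.213% in Y. In F0_ABS-MOR they ran from 0.0850 to 0.265% with a median of 0.154%. Every abstinent library stood above every nonabstinent library, and the group medians differed 3.66-fold in the saline and 5.44-fold in the morphine groups. The F0_ABS-SAL libraries fell into 3 low and 2 high ones. In bulk sperm RNA, more snoRNA-bearing cells and more snoRNA per cell cannot be told apart.

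The size of this gap depended on what the reads were set against. With the mitochondrial ribosomal RNA taken out of the total, the median snoRNA shares were 0.105% in F0_SAL and 0.0948% in F0_MOR against 0.217% in F0_ABS-SAL and 0.322% in F0_ABS-MOR. The saline groups then overlapped, with 0.138% in library W of F0_SAL and 0.127% in library E of F0_ABS-SAL. The morphine groups did not overlap (highest F0_MOR library 0.0991%, lowest F0_ABS-MOR library 0.210%). These shares also count the nested sets separately. This widens the gap, since those sets took more of the snoRNA reads in the abstinent libraries. With the nested sets counted once together, the saline groups overlapped further, since libraries C, O and V of F0_SAL then also exceeded library E. The morphine groups still did not overlap.

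**Figure D1:**
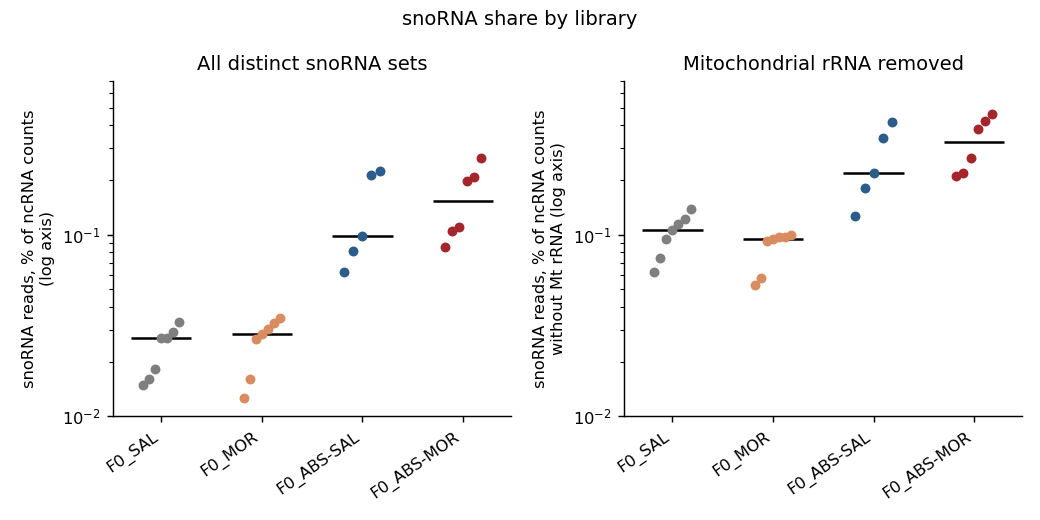
Each point is 1 library, the horizontal axis gives the group and the black line is the group median; the left panel gives snoRNA reads as a percentage of all ncRNA counts and the right panel the same without mitochondrial ribosomal RNA, both on log axes. All abstinent libraries lie above 0.06% in the left panel and all nonabstinent libraries below 0.035%. Libraries W and E overlap in the right panel. Both panels count the nested sets separately.

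Few of the snoRNA rows carried reads. Only 8 of the 175 sets had a count in all 25 libraries and 12 in at least 20 of them, while 125 were counted in 5 libraries or fewer and 143 had 50 reads or fewer over the whole series. The number of sets with any read was 23 to 51 in the nonabstinent and 48 to 65 in the abstinent libraries, which were also mostly deeper. Identity of counts does not always mean a copied gene. Of the 175 sets, 60 held 2 or more transcripts (326 transcripts in all, up to 22 in 1 set), but 53 of these had 50 reads or fewer. In 60 sets the counts were also those of a transcript of another RNA class, none of them with more than 53 reads in total. A count of 1 occurred nowhere in the table and the lowest count above 0 was 2. At least 2 reads per sequence were needed, so a 0 can stand for 1 or more discarded single reads. The 161 untested sets together had median levels of 21.6 CPM (F0_SAL) and 15.8 CPM (F0_MOR) before abstinence, and of 35.4 CPM (F0_ABS-SAL) and 41.3 CPM (F0_ABS-MOR) after it.

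A single group of transcripts with near-identical counts supplied most of the snoRNA reads of the abstinent libraries. The set ENSRNOT00000079504.1 (6 transcripts, 24430 reads), the set ENSRNOT00000079074.1 (2 transcripts, 24349 reads) and the set ENSRNOT00000086241.1 (2 transcripts, 21985 reads) were nested in each other in all 25 libraries. The summed differences in counts came to 0.332% of the reads between the first named set and the next, and to 10% between the first named and the last. These 10 transcripts are likely to share reads, and which of them was present cannot be told apart. They are called the ENSRNOT00000079504.1 family here, and its level is given by ENSRNOT00000079504.1. With the 3 sets counted as 1, by the reads of ENSRNOT00000079504.1, the family took 25.3 to 37.7% of the snoRNA reads in the nonabstinent libraries and 52.4 to 77.1% in the abstinent libraries, where it held the majority in every library.

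ENSRNOT00000086241.1 was not a fixed fraction of ENSRNOT00000079504.1. Its reads were a median of 92.7% of those of ENSRNOT00000079504.1 in F0_SAL (89.3 to 97.6%), 86.1% in F0_MOR (81.7 to 88.7%), 89.5% in F0_ABS-SAL (87.1 to 91.3%) and 90.2% in F0_ABS-MOR (87.4 to 92.5%). The ranges of F0_SAL and F0_MOR did not overlap. The values rest on 76 to 256 reads of ENSRNOT00000079504.1 per nonabstinent library, and the difference was not tested.

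The first question of the design was whether sperm snoRNAs differed between collection timepoints within each treatment. Of the 14 sets tested, 8 rose and 1 fell from F0_SAL to F0_ABS-SAL, and 9 rose and 1 fell from F0_MOR to F0_ABS-MOR. Calls needed a change of more than 0.58 (log2, up or down) together with an adjusted p below 0.1 (edgeR's quasi-likelihood test, Benjamini-Hochberg adjustment over every ncRNA row tested). In the saline groups 57.1% of the snoRNA sets were called higher, beside 25.3% of all 407 sets tested, and 7.14% lower beside 7.13%. In the morphine groups 64.3% were called higher beside 26.8%, and 7.14% lower beside 8.11%. The 8 sets that rose in saline also rose in morphine, and the same set fell in both. No library is shared between these comparisons, but both come from 1 model with a common filter, scaling and estimate of spread. Over all sets 21.1% were called higher in both, beside 57.1% of the snoRNA sets. These shares hold for the sets that passed the filter on low counts; without it the snoRNA share was near the background, as given with the filters.

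The background moved with the scaling. Of the calls over all sets, 78.0% were higher in saline and 76.8% in morphine with TMM factors, but 57.3 and 49.7% when libraries were scaled by total count, 58.2 and 50% with DESeq2 size factors, and 55.6 and 49.4% with 1 factor from the ncRNA and miRNA tables joined. Under these 3 scalings 6 or 7 snoRNA sets were called higher and 1 lower in saline, and 8 higher and 1 lower in morphine. The share of all sets called higher was then 15.5 to 20.1% in saline and 18.2 to 20.6% in morphine.

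The snoRNA counts include the family 3 times. With its 3 sets counted as 1, 6 sets rose and 1 fell in saline, and 7 rose and 1 fell in morphine. The median log2 fold change of the 14 sets, which includes the family 3 times, was 1.24 in saline and 2.07 in morphine. It was 0.23 and 0.27 over all sets tested, 1.21 and 0.54 over the snRNA sets, and 0.51 and 0.445 over the misc_RNA sets. Neighbouring classes also rose: 25 of 38 snRNA sets were called higher and 1 lower in saline, and 18 higher and 1 lower in morphine. Among the misc_RNA sets 32 of 68 were called higher in each treatment, with 0 lower in saline and 1 in morphine. None of the 11 scaRNA sets had enough reads to be tested. Whether snoRNAs differ from these classes was not tested.

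The 14 tested sets are not a neutral sample of the 175. A set entered the test if it reached 2.81 CPM, before TMM scaling, in at least 5 libraries. Of the 14, 5 reached that level in fewer than 5 nonabstinent libraries. ENSRNOT00000082476.1 and ENSRNOT00000079601.1 are the called ones among them, so they could enter only through abstinent libraries. A filter on the mean over the 25 libraries (at least 1 CPM) tested 17 sets, of which 7 rose and 1 fell in saline and 8 rose and 1 fell in morphine, that is 41.2 and 47.1% higher beside 19 and 18% of all 500 sets. It does not remove this selection, since both sets reach such a mean only with their abstinent libraries and were called under it too. In the other direction, ENSRNOT00000078081.1, the set that fell, could enter the main test only through nonabstinent libraries. With no filter on low counts, 12 of the 175 sets rose and 1 fell in each treatment. These 12 are 6.86% of the snoRNA sets, near the 6.66% of all 2086 sets called higher in each, so the larger share of snoRNA sets called was seen among the filtered sets and not over all 175.

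**Figure D2:**
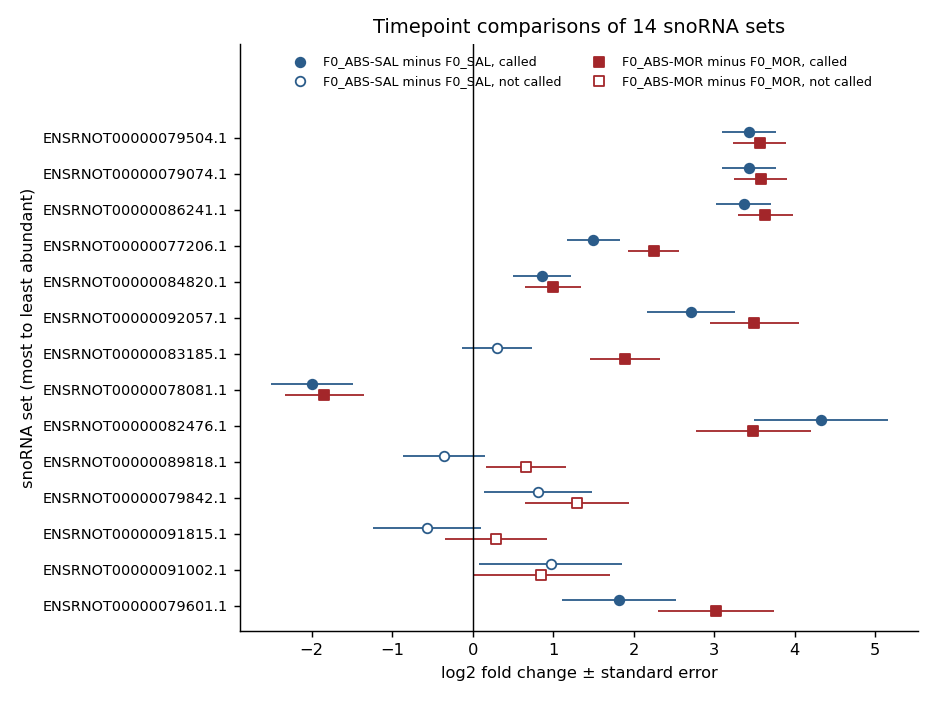
The log2 fold change from the nonabstinent to the abstinent group (horizontal axis) is given for each of the 14 tested snoRNA sets (vertical axis, most to least abundant), with its standard error, for saline (circles) and morphine (squares); filled symbols passed the test. ENSRNOT00000078081.1 is the set that fell in both treatments, and the 3 sets of the ENSRNOT00000079504.1 family lie between 3.37 and 3.64 in both.

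Among the 5 most abundant sets, the 3 of the ENSRNOT00000079504.1 family rose more than ENSRNOT00000077206.1 and ENSRNOT00000084820.1. Among less abundant sets the log2 fold change reached 3.50 for ENSRNOT00000092057.1 in morphine and 4.33 for ENSRNOT00000082476.1 in saline. ENSRNOT00000079504.1 ran from 28.2 to 58.7 CPM in F0_SAL with a median of 45.1, and from 24.0 to 51.7 CPM in F0_MOR with a median of 43.5. In F0_ABS-SAL it was at 208 CPM in E, 244 in K, 312 in L, 641 in R and 1032 in Y, and in F0_ABS-MOR it ran from 311 to 705 CPM with a median of 492. The abstinent libraries did not overlap with the nonabstinent ones in either treatment. Its log2 fold change was 3.43 ± 0.34 (SE, n = 5 and 7, edgeR adjusted p = 1.67e-10) in saline and 3.57 ± 0.33 (n = 6 and 7, edgeR adjusted p = 3.03e-11) in morphine. The within-group spread was widest in F0_ABS-SAL, where the standard deviation was 71.7% of the mean, against 20.6% in F0_SAL, 21.3% in F0_MOR and 34.0% in F0_ABS-MOR. The other family sets followed, with log2 fold changes of 3.43 and 3.58 for ENSRNOT00000079074.1 and 3.37 and 3.64 for ENSRNOT00000086241.1.

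At an unadjusted p under 0.05, edgeR gave 9 of the 14 sets in saline beside 34.2% of all sets, and 10 in morphine beside 38.8%. Of all 407 sets, 5.90% did not overlap between the saline groups with the abstinent group higher, and 15.7% between the morphine groups. Among the 14 snoRNA sets the numbers were 5 and 8. In saline these were the 3 family sets, ENSRNOT00000077206.1 and ENSRNOT00000082476.1, and in morphine ENSRNOT00000084820.1, ENSRNOT00000092057.1 and ENSRNOT00000083185.1 joined them. The 3 family sets likely share reads, and ENSRNOT00000082476.1 could enter the test only through abstinent libraries, where it is high. The counts by unadjusted p also include ENSRNOT00000079601.1, which entered in the same way, and ENSRNOT00000078081.1, which could enter only through nonabstinent libraries. The snoRNA counts are therefore not on an equal footing with the shares of all sets. No snoRNA set lay apart in the other direction, beside 0.983% of all sets in saline and 0.737% in morphine.

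ENSRNOT00000077206.1, a single transcript and the next in abundance, rose less. It ran from 18.9 to 51.0 CPM in F0_SAL (median 32.1) and from 17.4 to 31.3 CPM in F0_MOR (median 23.7). Its F0_ABS-SAL levels were 65.4 CPM in E, 86.2 in K, 81.2 in L, 102 in R and 150 in Y, and in F0_ABS-MOR it ran from 56.6 to 249 CPM (median 94.98). Each abstinent library exceeded every nonabstinent library of its treatment. The log2 fold change was 1.501 ± 0.325 (SE, edgeR adjusted p = 5.81e-04) in saline and 2.25 ± 0.32 (edgeR adjusted p = 6.19e-07) in morphine.

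ENSRNOT00000084820.1 rose by less, and its calls depended on the processing. It ran from 11.1 to 27.6 CPM in F0_SAL (median 14.7) and from 11.4 to 18.3 CPM in F0_MOR (median 16.5). The F0_ABS-SAL libraries had 13.8 CPM in E, 19.5 in K, 17.8 in L, 65.9 in R and 26.7 in Y, and in F0_ABS-MOR it ran from 18.5 to 44.2 CPM (median 31.9). Only library R of F0_ABS-SAL lay above all F0_SAL libraries, whereas each of the 6 F0_ABS-MOR libraries exceeded the highest F0_MOR library. The log2 fold change was 0.86 ± 0.36 (SE, edgeR adjusted p = 0.0716) in saline and 1.00 ± 0.35 (edgeR adjusted p = 0.0256) in morphine. The saline call was lost without R (log2 fold change 0.39, edgeR adjusted p = 0.433), without C, H, O, P, W, A, G, M, U or K, and in 9 of 12 other processing settings. The morphine call was lost without H, W, A, G, M, N, U, E, I or Q, and in 6 of 12 other settings. Over these single omissions the log2 fold change ran from 0.39 to 1.06 in saline and from 0.53 to 1.03 in morphine, with edgeR adjusted p up to 0.433 and 0.338.

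ENSRNOT00000092057.1 rose strongly but unevenly. It ran from 2.32 to 11.6 CPM in F0_SAL (median 4.86) and from 0 to 8.25 CPM in F0_MOR (median 2.44). The 0 was library A, where 3 reads equal 1.28 CPM. In F0_ABS-SAL it was at 42.9 CPM in E, 45.4 in K, 70.6 in L, 9.998 in R and 15.6 in Y, and in F0_ABS-MOR it ran from 15.8 to 55.4 CPM (median 45.9). Library R overlapped with F0_SAL, while the 6 F0_ABS-MOR libraries each exceeded the highest F0_MOR library. The log2 fold change was 2.71 ± 0.54 (SE, edgeR adjusted p = 2.29e-04) in saline and 3.50 ± 0.55 (edgeR adjusted p = 4.10e-06) in morphine.

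**Figure D3:**
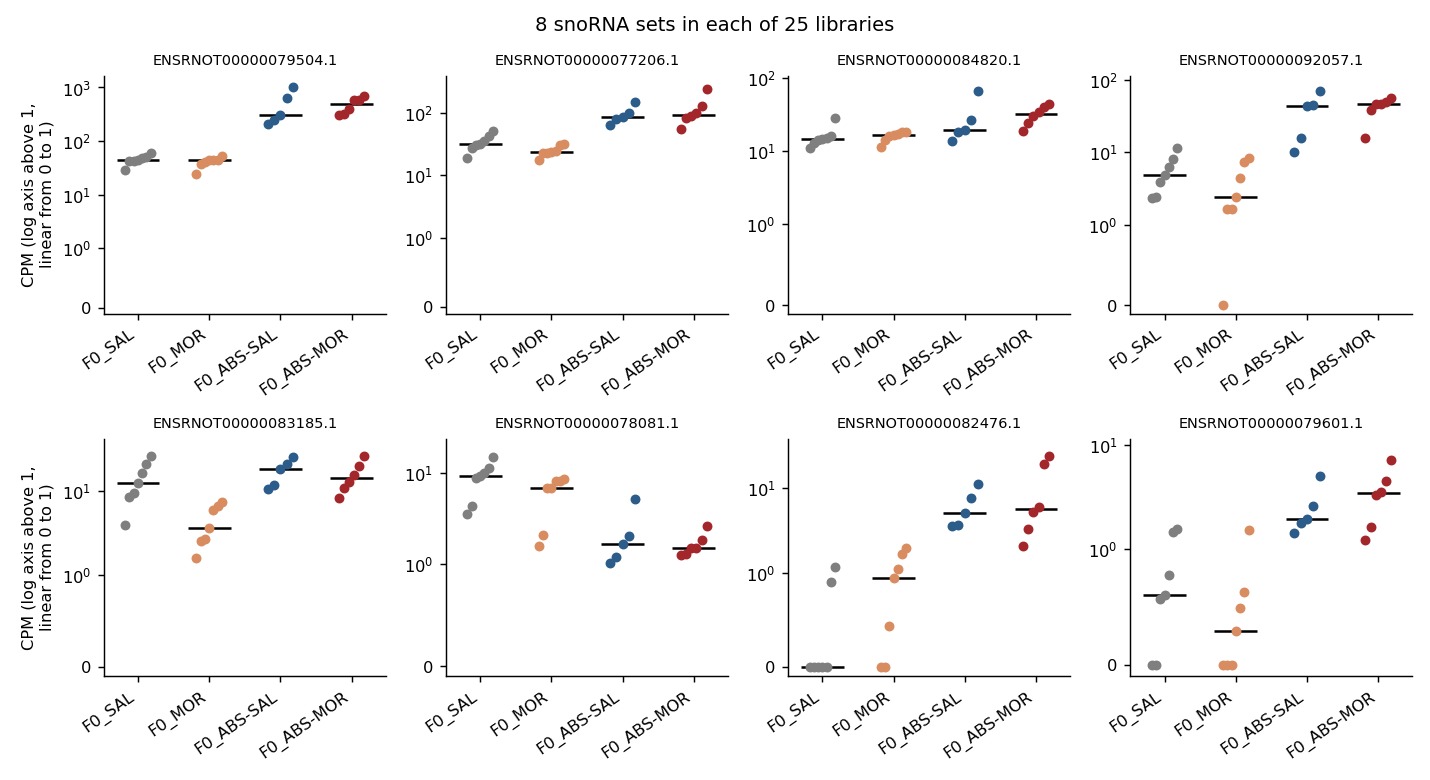
Each panel gives 1 snoRNA set and each point 1 library, in CPM scaled by trimmed mean of M-values (TMM) factors on an axis that is logarithmic above 1 and linear from 0 to 1, with the group on the horizontal axis and the group median as a black line. ENSRNOT00000078081.1 has lower medians in both abstinent groups than in both nonabstinent groups, and the other 7 panels show higher medians in the abstinent group of each treatment.

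The family and ENSRNOT00000092057.1 differed in which abstinent libraries were high. Libraries R and Y had the highest family level of F0_ABS-SAL and its lowest levels of ENSRNOT00000092057.1. In F0_ABS-MOR, library X combined a family level of 586 CPM with the lowest ENSRNOT00000092057.1 level of its group, 15.8 CPM. The family to ENSRNOT00000092057.1 ratio was 64.1 in R, 66.3 in Y and 37.0 in X, against 4.42 to 15.4 in the other 8 abstinent libraries. Library R also held the highest muscle miRNA sum (83360 CPM) and the highest epithelial miRNA sum (19270 CPM) of all libraries. Library X was second in epithelial miRNAs (17280 CPM) with 15840 CPM of muscle miRNAs, while library Y stood at 10320 CPM epithelial and 18680 CPM muscle. Their part in the ratio was not tested.

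**Figure D4:**
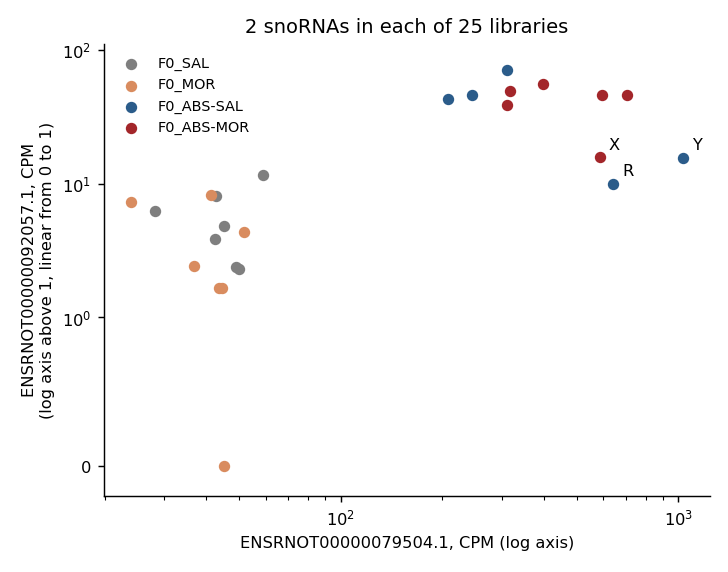
Each point is 1 of the 25 libraries, with the CPM of ENSRNOT00000079504.1 on a horizontal log axis and the CPM of ENSRNOT00000092057.1 on a vertical axis that is logarithmic above 1 and linear from 0 to 1. The 11 abstinent libraries lie to the right of the nonabstinent ones, and R, Y and X lie below the other 8 abstinent libraries at 9.998 to 15.8 CPM.

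A rise was not general to the tested snoRNAs. ENSRNOT00000078081.1 ran from 3.60 to 14.8 CPM in F0_SAL (median 9.31) and from 1.58 to 8.52 CPM in F0_MOR (median 6.88). Its F0_ABS-SAL levels were 1.21 CPM in E, 1.04 in K, 2.03 in L, 1.67 in R and 5.19 in Y, and in F0_ABS-MOR it ran from 1.26 to 2.60 CPM (median 1.51). The groups overlapped in both treatments, with 4 of 5 F0_ABS-SAL libraries below all F0_SAL libraries and 4 of 6 F0_ABS-MOR libraries below all F0_MOR libraries. It fell by 1.99 ± 0.51 on the log2 scale (SE, edgeR adjusted p = 0.00335) in saline and fell by 1.84 ± 0.49 (edgeR adjusted p = 0.00332) in morphine. The abstinent values rest on 5 to 21 reads per library. The set reached the filter level in 1 F0_ABS-SAL and 0 F0_ABS-MOR libraries. It could therefore enter the test only through nonabstinent libraries, where it is high, so its fall is not independent of the filter. With no filter on low counts it was also called lower (edgeR adjusted p = 0.0684 in saline and 0.0364 in morphine).

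Both low-count sets that entered through abstinent libraries were close to undetected before abstinence. ENSRNOT00000082476.1 was at 0 in 5 of 7 F0_SAL libraries, where 3 reads equal 0.809 to 1.16 CPM, and its highest F0_SAL value was 1.16 CPM. In F0_MOR it was at 0 in 2 of 7 libraries and reached 1.94 CPM. The F0_ABS-SAL libraries had 3.63 CPM in E, 3.63 in K, 5.08 in L, 7.62 in R and 11.4 in Y, and in F0_ABS-MOR it ran from 2.08 to 24.2 CPM (median 5.61). The groups did not overlap in either treatment. The fitted log2 fold changes were 4.33 ± 0.83 (SE, edgeR adjusted p = 1.29e-04) in saline and 3.49 ± 0.71 (edgeR adjusted p = 2.06e-04) in morphine, and the first depends on how a 0 is treated. ENSRNOT00000079601.1, a set of 2 transcripts, had group medians of 0.600 CPM (F0_SAL) and 0.287 CPM (F0_MOR) before abstinence, and of 1.94 CPM (F0_ABS-SAL) and 3.40 CPM (F0_ABS-MOR) after it. Its log2 fold changes were 1.82 ± 0.71 (SE, edgeR adjusted p = 0.0520) and 3.03 ± 0.72 (edgeR adjusted p = 0.00112). The saline call was lost in 4 of the 9 other settings that tested it (DESeq2, total count alone, joint TMM factors and total count as a covariate) and without H, O, W, G, M, U, K or Y, while the morphine call was kept in all 9.

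The remaining tested sets were low and passed in neither timepoint comparison in edgeR. ENSRNOT00000089818.1, ENSRNOT00000079842.1, ENSRNOT00000091815.1 and ENSRNOT00000091002.1 had group medians between 0 and 3.37 CPM. Their log2 fold changes ran from -0.56 to 0.97 in saline and from 0.29 to 1.30 in morphine, with standard errors of 0.50 to 0.89. In morphine limma-voom with quality weights gave larger values and called ENSRNOT00000079842.1 (2.72, adjusted p = 0.00102) and ENSRNOT00000091002.1 (2.09, adjusted p = 0.0622) higher, each in 1 of the 9 other settings that tested it, and ENSRNOT00000079842.1 also passed in edgeR without N or without T. Over those settings ENSRNOT00000091002.1 ran from -0.90 to 2.09 in morphine and from -0.52 to 1.20 in saline, changing sign. ENSRNOT00000079842.1 and ENSRNOT00000091815.1 had counts within 6.91 and 6.77% of those of a transcript listed as lincRNA, and the class of their reads cannot be told apart.

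ENSRNOT00000083185.1 was called higher after abstinence in morphine and not in saline. It ran from 3.95 to 27.0 CPM in F0_SAL (median 12.8) and from 1.58 to 7.50 CPM in F0_MOR (median 3.58). In F0_ABS-SAL it was at 11.9 CPM in E, 18.7 in K, 21.1 in L, 10.7 in R and 25.7 in Y, and in F0_ABS-MOR it ran from 8.33 to 27.0 CPM (median 14.4). The other 3 groups thus had medians between 12.8 and 18.7 CPM, though a lowest median in F0_MOR was common to 11 of the 14 tested sets. No F0_ABS-MOR library was as low as the highest F0_MOR library. The log2 fold change between timepoints was 1.90 ± 0.44 (SE, edgeR adjusted p = 8.22e-04) in morphine and 0.30 ± 0.44 (edgeR adjusted p = 0.632, 95% interval -0.55 to 1.16) in saline.

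The second question was whether morphine and saline differed at each timepoint. No snoRNA set, and none of the 407 sets, was called in edgeR in either comparison (0% of all sets in each direction). At an unadjusted p under 0.05, edgeR gave 1 snoRNA set between F0_MOR and F0_SAL, beside 5.90% of all sets, and 0 between F0_ABS-MOR and F0_ABS-SAL, beside 0.246%. DESeq2 called 1 snoRNA set lower in F0_MOR and 0 in the abstinent groups. The share of all sets called by DESeq2 is not given here.

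That set was ENSRNOT00000083185.1. It was lower in F0_MOR than in F0_SAL by a log2 fold change of -1.74 ± 0.43 (SE, 95% interval -2.57 to -0.90), with an unadjusted p of 2.53e-04 and an adjusted p of 0.122 in edgeR. Of the 7 F0_SAL libraries 6 lay above all F0_MOR libraries, the exception being library H at 3.95 CPM, and 4 of 7 F0_MOR libraries lay below all F0_SAL libraries. The F0_MOR values rest on 8 to 20 reads per library. The adjusted p was 0.0372 with DESeq2 and ran from 0.0372 to 0.512 over the 11 other settings that tested it. In abstinent males its log2 fold change was -0.14 ± 0.45 (95% interval -1.03 to 0.74, edgeR adjusted p = 0.992).

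For the other sets the intervals give the differences that remained compatible with the data. The 95% interval of the ENSRNOT00000079504.1 difference was -0.72 to 0.45 between F0_MOR and F0_SAL and -0.66 to 0.64 between F0_ABS-MOR and F0_ABS-SAL. For ENSRNOT00000077206.1 it was -1.06 to 0.13 and -0.38 to 0.95, and for ENSRNOT00000084820.1 -0.66 to 0.65 and -0.59 to 0.87. ENSRNOT00000082476.1 had the lowest unadjusted p of the 14 sets in abstinent males, 0.324 in edgeR, with a log2 fold change of 0.68 ± 0.68 (95% interval -0.65 to 2.00).

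**Figure D5:**
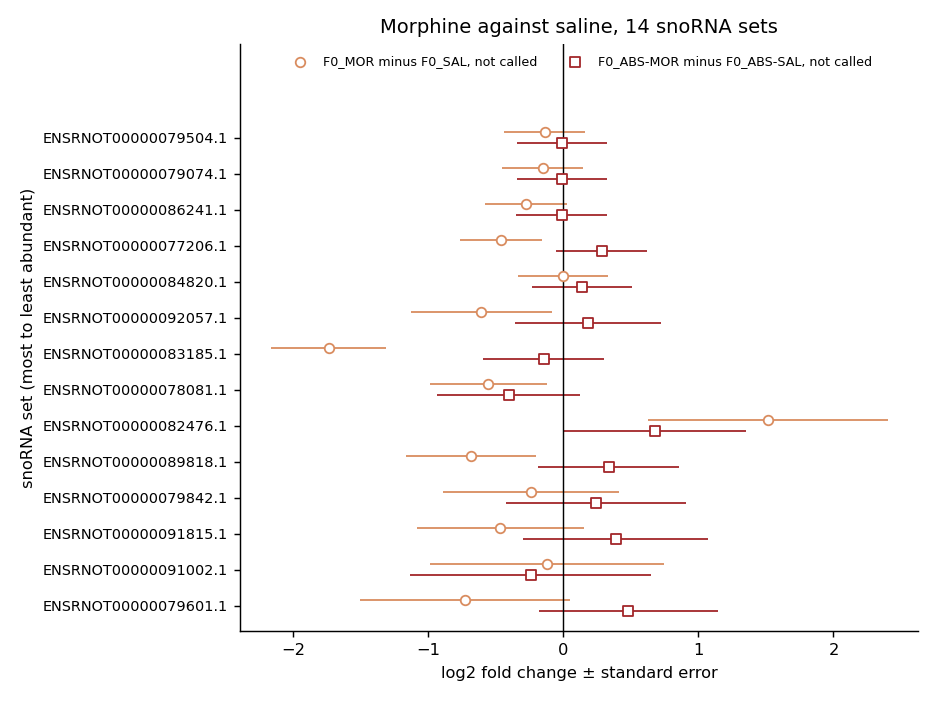
The log2 fold change of morphine against saline (horizontal axis) with its standard error is given for each of the 14 snoRNA sets (vertical axis, most to least abundant), for nonabstinent (circles) and abstinent males (squares); open symbols mark sets that were not called. All sets are open, and ENSRNOT00000083185.1 in nonabstinent males, at -1.74, lies farthest below 0.

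The third comparison asked whether the difference between morphine and saline changed with abstinence, which is also the test of whether the timepoint difference changed with treatment. No snoRNA set and 0% of all sets were called in edgeR, and at an unadjusted p under 0.05 there was 1 snoRNA set beside 3.19% of all sets. This was ENSRNOT00000083185.1, whose interaction was -1.59 ± 0.62 (log2, SE, 95% interval -2.81 to -0.38), with an unadjusted p of 0.0147 and an adjusted p of 0.912 in edgeR. It was therefore not shown that this snoRNA responded differently before and after abstinence. For ENSRNOT00000079504.1 the interaction was -0.13 ± 0.45 (95% interval -1.01 to 0.74), and for ENSRNOT00000077206.1 it was -0.75 ± 0.45 (95% interval -1.64 to 0.14).

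In TMM-scaled CPM, the rise between timepoints was seen beyond the family as well. With the family left out, the summed level of the snoRNA sets ran from 68.0 to 143 CPM in F0_SAL and from 69.7 to 87.8 CPM in F0_MOR, against 179 to 307 CPM in F0_ABS-SAL and 216 to 403 CPM in F0_ABS-MOR. The groups did not overlap in CPM, and the medians differed 1.97-fold in saline and 3.16-fold in morphine. This depended on the scaling. Over ncRNA counts without mitochondrial ribosomal RNA, the sets outside the family overlapped between the groups of each treatment. Their saline median was then not higher after abstinence. With the whole family counted as 1 set, the share of all ncRNA counts differed 2.89-fold and 3.90-fold.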

How the data were processed

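Per the labels and the methods of the study, the authors prepared small RNA libraries with the NEBNext kit, mapped reads with sRNAbench (at least 2 reads per sequence, miRBase first, then Ensembl ncRNA; genome rn6 per the submitters' processing notes) and deposited raw counts per transcript and per miRNA. Counts were not normalized in the deposited tables. Reads shared by similar transcripts can be counted for each.

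Column names give the treatment and REG or TO; group sizes show that REG can only be nonabstinent and TO abstinent. No batch was given and 0 columns were left unused. From the counts, edgeR 4.0.16 (R 4.3.3) was run with TMM factors, filterByExpr and 1 model of 4 groups on the whole ncRNA table. SE is the absolute log2 fold change over the root of F, and 95% intervals use a normal approximation. CPM values are TMM-scaled, except the filter levels (2.81 and 1 CPM) and the 6.49 CPM of 10 reads, which use total counts. Both limits for 0 counts (3 reads) and intervals cover counting or library error only. The limit of 3 reads takes a 0 as no read, so it is too low where single reads were discarded. The test was checked on simulated data. Alternatives used DESeq2 1.42.0, limma 3.58.1, other scalings, filters, thresholds and models, and each library left out. The fits with 3 nested sets as 1 were added after seeing the data.

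Named sets were the 5 most abundant, the 3 called ones with the smallest p in each timepoint comparison, every one called lower, the smallest p in each other comparison, and ENSRNOT00000083185.1. All tested sets could be named. Members and lists were chosen with earlier results of these data known. The RefSeq table (GRCr8) pairs no Ensembl identifiers, so gene names, classes and sequences were not used here.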

Additional observations from a re-analysis of the deposited data

Results flagged for a closer look

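In 40 groups of library values checked for 1 library apart from the rest of its group, 3 stood apart, where chance gives about 1 in 20 groups, or 2 of 40. The log2 total ncRNA count of library O in F0_SAL was 22.63, with the next library at 21.76. The log2 CPM of ENSRNOT00000086241.1 in library G of F0_MOR was 4.37, below the next lowest at 5.03. The log2 CPM of ENSRNOT00000084820.1 in library V of F0_SAL was 4.80, above the next highest at 4.00.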

How the results depend on the processing

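No paired analysis was possible because the columns of the count tables carry no replicate numbers. With at least 10 counts in every library, only the sets of the ENSRNOT00000079504.1 family, ENSRNOT00000077206.1 and ENSRNOT00000084820.1 were tested. All 5 were called higher and 0 lower in each timepoint comparison, and the family sets likely share reads. The shares of all sets called with this filter and with DESeq2 are not given here. DESeq2 called 2 sets lower in saline, the second being ENSRNOT00000086075.1, which was too low for the edgeR filter. Between F0_MOR and F0_SAL, 1 set, ENSRNOT00000083185.1, was called lower with DESeq2, with DESeq2 size factors, with only these groups in the model and with mitochondrial rRNA removed, and also when library F, H, T or U was left out (0 to 1 over all 25 omissions). In 129 of 138 other counts of calls the number stayed within 1.5 times. This takes 0 against 0 as staying, which covers most settings of the treatment and interaction counts. Leaving out 1 library gave 6 to 8 sets higher in saline and 7 to 10 in morphine, with 1 lower in each. The ENSRNOT00000082476.1 difference in abstinent males turned to -0.008 with limma-voom and to -0.015 with total count as a covariate, and ran from -0.11 to 0.89 over omissions. ENSRNOT00000083185.1 in saline ran from -0.155 to 0.48, below 0 without H, G, M or U; its F0_MOR difference ran from -1.96 to -1.51, with adjusted p from 0.0618 to 0.558. The median change of all sets depended on scaling. In saline it was 0.23 as fitted, 0.03 by total count, -0.06 by DESeq2 size factors and -0.02 by joint factors, and in morphine 0.27, -0.22, -0.12 and -0.21; omissions moved it from -0.14 to 0.37 and from -0.16 to 0.31. The snoRNA medians stayed between 0.95 and 1.24 and between 1.55 and 2.07. Median snoRNA shares were 0.105, 0.0948, 0.217 and 0.322% in F0_SAL, F0_MOR, F0_ABS-SAL and F0_ABS-MOR without mitochondrial rRNA, 0.0140 and 0.0186% in F0_SAL and F0_MOR with miRNA counts joined, and 0.0170, 0.0172 and 0.0670% in F0_SAL, F0_MOR and F0_ABS-MOR with the family counted as 1. Omissions gave 0.0225 to 0.0269%, 0.0275 to 0.0293%, 0.0894 to 0.155% and 0.110 to 0.197%. Depth limits the sets below 6.49 CPM, which is 10 reads over the total count of the shallowest library, T, before TMM scaling. The TMM factor of T is 1.559, so 10 of its reads lie lower on the scale of the levels given.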
